A study of Mus musculus with 24 samples.

Results

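Plasma vesicle RNA of mice 15 days after bile duct ligation was compared with that of sham-operated mice of the same day. The comparison uses 12 of the 24 libraries of the study, 6 per group and 1 per animal, chosen by the operation and day named in the sample titles. All animals were males of the inbred strain C57BL/6J, with no transgene or other treatment named and no age given in the labels. The ligated group had the common bile duct tied, and the sham group had surgery without ligation. The other 12 libraries are the same groups at day 8, from other animals, and are used below only beside the day 15 values. The study asked whether RNA that cells release into the blood in vesicles reports on the cholestatic liver.

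Bile is made by hepatocytes, flows through bile ducts lined by cholangiocytes and empties into the gut. When the duct is tied, bile acids back up into the liver, hepatocytes are injured, ducts multiply and stellate cells lay down collagen. Hepatocytes also make most proteins of blood plasma, and several of those belong to the acute phase response, in which inflammation changes their production. Extracellular vesicles are membrane-bound particles that carry RNA of the cells that shed them, and in plasma most of that RNA comes from blood cells, platelets and vessel walls.

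Library totals ran from 315404 to 465744 counts in ligated and from 157133 to 351201 in sham animals, and 11483 to 13991 and 9389 to 11076 genes had a count. The gene model of Lars2 took 41.4 to 52.7% of the counts after ligation and 45.3 to 51.4% after sham surgery, and hemoglobin genes took 4.14 to 9.32% and 5.72 to 12.1%. The label of the tissue reads liver, but the sample site is vesicles of plasma: erythroid markers summed to 26775 to 60087 CPM (counts divided by the library total and scaled to a common size) after ligation and 34784 to 75502 after sham surgery, and hepatocyte markers to 2661 to 19543 and 35.9 to 149. Of the 10 hepatocyte markers, 3 were at 0 in all sham libraries. Ligated animal 5 stood apart by its liver transcripts and sham animal 1 by transcripts of vessel wall and connective tissue, so counts and genes that rest on them are also given without them.

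Ligation at day 15 changed 187 of the 4112 genes tested (4.55%) at a Benjamini-Hochberg adjusted p under 0.05 in edgeR's quasi-likelihood test, raising 143 (3.48%) and lowering 44 (1.07%). The groups did not overlap for 93 of the higher and 16 of the lower genes. Over all genes tested, 2.38% had every ligated animal above every sham animal and 0.803% had every ligated animal below. The median log2 fold change was -0.02 over all genes tested, 2.07 over the higher genes and -1.03 over the lower genes. Of the higher genes, 49 belonged to 12 lists of liver transcripts, 15 were predicted genes without an established name and 79 were neither. Without ligated 5 and sham 1, 93 genes were higher and 19 were lower. Without ligated 5 alone the counts were 98 and 19, and without ligated 1 there were 28 lower genes. DESeq2 gave 377 higher and 81 lower genes, the fit without a filter 553 and 135, and a minimum count of 30 gave 56 and 45.

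Transcripts of the carrier proteins of plasma rose together. Of the 21 members of that list 9 were tested, and all 9 were higher after ligation, with a median log2 fold change of 6.69. Genes near 0 in sham libraries could pass the filter only through ligated animals. For this and the other liver lists, the shares and medians thus describe genes partly selected for being high after ligation. Alb encodes albumin, the most abundant plasma protein (GRCm38 chromosome 5, 90460897 to 90476602, plus strand). It stood at 2815, 2206, 1205, 2171, 8085 and 773 normalised CPM (CPM after a correction of library size for composition) in ligated animals 1 to 6. In sham animals 1 to 6 it stood at 0, 0, 6.18, 14.5, 61.6 and 29.9. The lowest ligated animal was above the highest sham animal, and the log2 fold change was 7.19 (standard error, SE, 0.94, adjusted p = 8.89e-06), 6.54 without ligated 5 and 8.04 without sham 5. Trf encodes transferrin, the iron carrier (chromosome 9, 103204001 to 103230444, minus strand). Its values were 4878, 2374, 1515, 2728, 7681 and 1077 after ligation and 28.2, 70.8, 74.1, 63.7, 57.8 and 111 after sham surgery. Unlike Alb, it had counts in every sham library, and it rose by 5.64 (SE 0.57, adjusted p = 2.11e-07). Hpx, which encodes the heme carrier hemopexin, was read 2332 times over the ligated libraries and 1 time, in animal 5, over the sham libraries. Cp, the copper-binding ferroxidase ceruloplasmin, changed least in this list, from 35.6 ± 15.4 to 262 ± 163 normalised CPM (SD, n = 6 each), up by 2.92 on the log2 scale (SE 0.50, adjusted p = 0.000308). Of the apolipoproteins, which package plasma lipids, 3 of 4 tested genes rose, Apoa1 among them from 0 to 8.85 in sham animals to 114 to 623 normalised CPM after ligation.

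**Figure D1:**
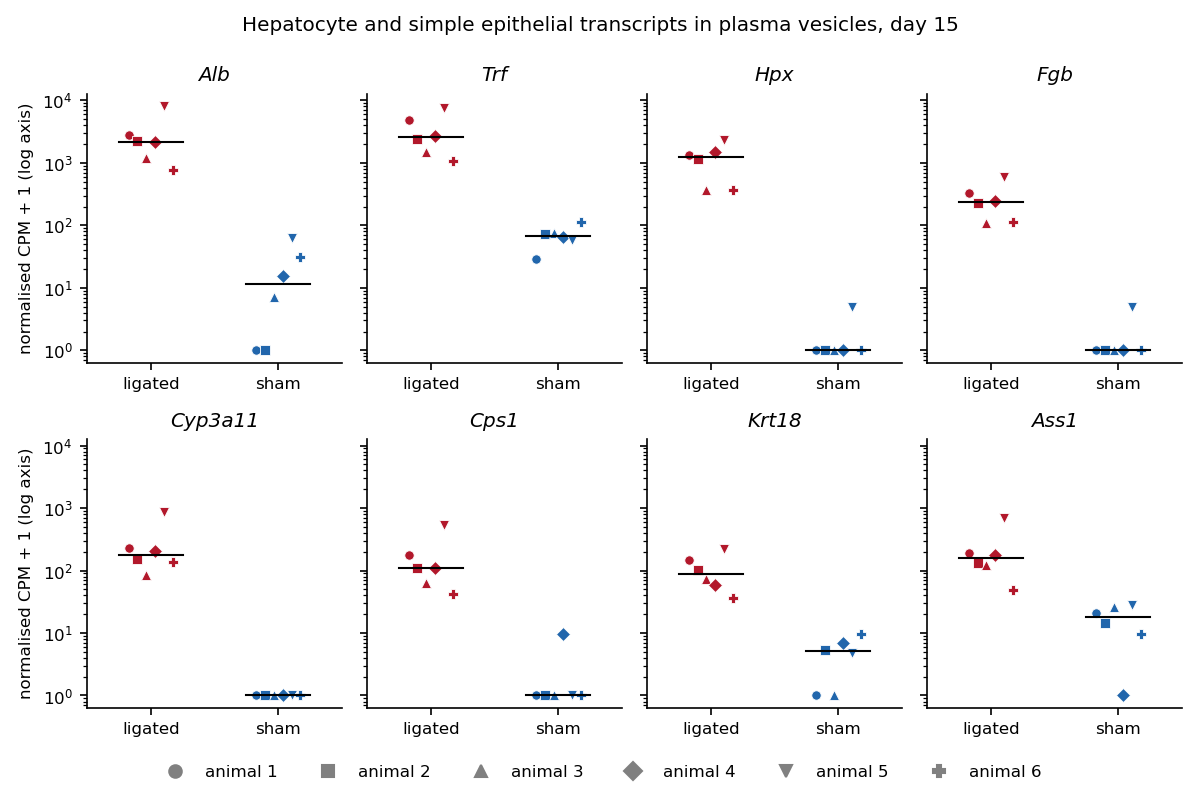
Normalised CPM plus 1 on a log axis for 8 genes in the 6 ligated (red) and 6 sham (blue) libraries of day 15; each symbol is 1 animal and the line is the group median. The ligated animals lie above the sham animals for all 8 genes, with ligated 5 highest in each.

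The promoters of liver genes often hold sites for HNF1, a transcription factor that hepatocytes share with kidney and gut. The half-site GTTAAT was searched on both strands of the 250 bases upstream of the start given by RefSeq for GRCm38.p6. Of the 49 liver list genes that rose, 36 had an entry, and 10 of those held the half-site: Alb, Cp, Fga, Fgb, Gc, Mug1, Pzp, Serpina1a, Serpina1b and Serpina1c. In all promoters of the table, 1760 of 27025 (6.5%) held it. Fewer than 80% of the liver list genes had an entry, so a comparison of shares is void and none was made. The 120 bases before the start of 4 of these genes are printed 5′ to 3′ on the gene's strand, with the half-site or its reverse complement ATTAAC in capitals, because these 4 rose from low or no sham counts. They were chosen for holding the half-site. The windows are chr5:90460750-90460869 on the plus strand for Alb, chr3:83026033-83026152 on the plus strand for Fga, chr3:83049864-83049983 on the minus strand for Fgb and chr12:103738190-103738309 on the minus strand for Serpina1b.
Alb: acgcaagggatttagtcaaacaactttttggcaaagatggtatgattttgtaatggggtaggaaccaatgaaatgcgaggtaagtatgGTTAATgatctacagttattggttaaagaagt
Fga: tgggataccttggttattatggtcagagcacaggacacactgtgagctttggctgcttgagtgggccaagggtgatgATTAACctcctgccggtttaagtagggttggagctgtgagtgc
Fgb: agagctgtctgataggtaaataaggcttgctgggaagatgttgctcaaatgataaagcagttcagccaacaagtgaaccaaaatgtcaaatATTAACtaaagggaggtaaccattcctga
Serpina1b: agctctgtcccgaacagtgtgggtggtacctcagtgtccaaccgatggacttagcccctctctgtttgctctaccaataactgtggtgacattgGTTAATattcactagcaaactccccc
The first base of the match lay 32, 43, 29 and 26 bases before the RefSeq start in Alb, Fga, Fgb and Serpina1b. The gene models of GENCODE M21, used for the other coordinates, start elsewhere for some of them. They begin Fga at 83026076, inside its printed window and before the match. They begin Serpina1b at 103830373, far upstream of its window. A match is a description of these letters and not of binding.

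Fibrinogen, the clotting protein, is made of 3 chains encoded by Fga, Fgb and Fgg. Fgb stood at 332, 227, 108, 247, 586 and 111 normalised CPM in ligated animals 1 to 6, and a single count, in animal 5, was found over the sham libraries. Its ratio of normalised counts was 415 (95% exact interval 74.2 to 16438). Fga had 537 counts after ligation and 1 after sham surgery, and Fgg had 419 and 0, which makes Fgg at least 109-fold higher against a floor of 3 counts over the sham group. In the ligated group the means were 267 ± 192 normalised CPM for Fga, 269 ± 178 for Fgb and 213 ± 132 for Fgg (SD, n = 6), which are not corrected for length. Of 22 coagulation genes 6 were tested and 4 rose. The median over those tested was 8.05, or 6.36 with genes at 0 in sham libraries set to their bound.

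Protease inhibitors of plasma rose in 10 of 11 tested members of a list of 23, with a median of 6.41 (6.31 at the bounds). Serpina1b, 1 of the mouse genes for alpha-1-antitrypsin, went from 6 counts to 735 and rose by 6.41 (SE 0.71, adjusted p = 7.89e-07). Serpina1a, Serpina1b and Serpina1c are near-identical copies, and how their reads were divided is uncertain. Itih4, a heavy chain of the inter-alpha-trypsin inhibitors, had 291 counts after ligation and 1 after sham surgery. Kng1, the precursor of bradykinin, stood at 38.0 to 498 normalised CPM after ligation and 0 to 8.85 after sham surgery and rose by 6.04 (SE 0.79, adjusted p = 8.89e-06).

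Among the 30 acute phase genes 10 of 12 tested members rose, with a median of 6.37. Lcn2, which encodes the iron-sequestering neutrophil and liver protein lipocalin 2, was not among them. It stood at 214, 120, 105, 98.7, 143 and 38.0 normalised CPM after ligation and 4.02, 84.1, 124, 0, 38.5 and 25.6 after sham surgery. The groups overlapped, and its log2 fold change of 1.52 (SE 0.57) had an adjusted p of 0.129. Without sham 3 it was called, at 2.04 (adjusted p = 0.0428), and it was also called in the fit without a filter. Other members were too rare to test. Saa1, serum amyloid A, had 5, 5, 3, 7, 7 and 3 counts in ligated animals 1 to 6 and 0 in every sham library. Hamp, which encodes the iron hormone hepcidin, had 13, 9, 1, 8, 30 and 3 against 0, and Crp, C-reactive protein, had 56 in all against 0.

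Complement genes were called in part. All 8 tested members had a positive log2 fold change, 3 of them passed the test and the list median was 1.14. C3, the central component, was read in all libraries, at 719 to 3224 normalised CPM after ligation and 130 to 581 after sham surgery. The groups did not overlap, and it rose by 2.14 (SE 0.55, adjusted p = 0.0195), but without ligated 5 its adjusted p was 0.072. Cfb, the protease of the alternative pathway, rose by 3.36 (SE 0.59, adjusted p = 0.000378). C4b, of the classical pathway, rose by 1.88 (SE 0.42, adjusted p = 0.00597), and its adjusted p was 0.0638 without both libraries that stood apart.

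Enzymes of amino acid, urea and methyl group metabolism rose in 6 of 8 tested members of a list of 40, with a median of 5.08 (4.82 at the bounds). Cps1, the mitochondrial enzyme that starts the urea cycle, stood at 176, 110, 61.3, 110, 532 and 41.2 normalised CPM after ligation. All 3 of its sham counts came from animal 4 (8.68 normalised CPM), and the ratio of normalised counts was 91.7 (95% exact interval 31.1 to 447). Its fitted log2 fold change was 6.22 (SE 1.01, adjusted p = 0.000146), and without animal 4 no sham count was left. Ass1, argininosuccinate synthase of the same cycle, went from 15.6 ± 10.3 to 227 ± 233 normalised CPM (SD, n = 6 each), and rose by 3.95 on the log2 scale (SE 0.58, adjusted p = 3.51e-05). Sham animals other than number 4 thus had counts of Ass1 and none of Cps1. Bhmt, which remethylates homocysteine, had 572 counts against 1, and Gnmt and Mat1a, of the S-adenosylmethionine cycle, had 199 and 649 against 0.

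Detoxification enzymes rose in part. Among conjugation and detoxification genes 6 of 13 tested members rose, with a median of 1.47, and among cytochrome P450 genes 2 of 3 rose. Cyp3a11, the main steroid and bile acid hydroxylase of its family in mouse liver, stood at 229, 149, 83.0, 203, 861 and 136 normalised CPM after ligation and had 0 counts in every sham library, at least 149-fold higher. Gstm3, a glutathione transferase, stood at 38.0 to 187 against 0, at least 38.7-fold higher. Gstp1, a family member also made outside the liver, differed less, at 94.3 ± 35.2 against 48.1 ± 13 normalised CPM (SD, n = 6 each). Its log2 fold change was 0.98 (SE 0.25, adjusted p = 0.0176), and without ligated 5 its adjusted p was 0.076. Cyp2e1, the ethanol-oxidising P450, rose by 3.17 (SE 0.81, adjusted p = 0.0176), and without ligated 5 by 2.08 with an adjusted p of 0.174.

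Genes of lipid metabolism, which many tissues share, moved less. Of 14 tested members 3 rose, with a median of 0.47. Scd1, the stearoyl-CoA desaturase, stood at 295 to 1144 normalised CPM after ligation and 48.7 to 550 after sham surgery and rose by 1.71 (SE 0.49, adjusted p = 0.0414). Its call was lost without any 1 of 7 libraries (ligated 1 or 5, or sham 1, 2, 4, 5 or 6), with adjusted p values up to 0.129. Hmgcs1, of cholesterol synthesis, rose by 1.89 (SE 0.47, adjusted p = 0.0166), with an adjusted p of 0.0964 without ligated 5.

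Bile acid genes were mostly below the depth of these libraries. Of 19 synthesis genes 2 were tested and 1 of them, the sterol carrier gene Scp2, rose, by 1.12 (SE 0.24, adjusted p = 0.00471). Cyp7a1, the rate-limiting enzyme of bile acid synthesis, had 4, 1, 2, 4, 36 and 2 counts in ligated animals 1 to 6 and 0 in every sham library, so that ligated 5 alone held most of them. None of 19 transporter genes was tested. Abcb11, the bile salt export pump, had 6, 4, 3, 11, 40 and 6 counts against 1 in all sham libraries, and Abcc2, which exports bilirubin conjugates, had 103 against 1. Slc10a1, which takes bile acids up from blood, had 19 counts against 0. None of 17 liver transcription factor genes was tested either, and Hnf4a, the main regulator of hepatocyte identity, had 19, 13, 9, 17, 42 and 9 counts against 0. In all, 255 members of the 14 liver lists, complement and transcription factors included, were below the filter, with 10589 counts after ligation and 1065 after sham surgery, and 141 of them were found after ligation only.

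Among the 49 liver list genes that rose, the ligated animals kept much the same order. Ligated 5 was highest for 46 and ligated 1 for 3. Ligated 6 was lowest for 26, ligated 3 for 18, ligated 2 for 3 and ligated 4 for 2. From the lowest to the highest ligated animal the median ratio over these genes was 7.19 (2.24 to 31.4). The liver lists took 2.49, 1.78, 1.02, 1.94, 4.90 and 0.937% of the counts in ligated animals 1 to 6 and 0.271 to 0.446% in sham animals. In plasma RNA, more vesicles from hepatocytes and more RNA of these genes per vesicle cannot be told apart. Whether some of these reads came from other material in the precipitate was not tested.

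A set of 1495 receptor genes of smell, taste and pheromones, which serve mainly in sensory epithelia, also differed between the groups. Their counts were 542, 926, 58, 296, 445 and 188 in ligated animals 1 to 6 and 3, 2, 1, 9, 13 and 1 in sham animals. The groups did not overlap, with 2455 counts against 29, and the order of the ligated animals was not that of the liver genes: animal 2 was highest and animal 3 lowest. Per receptor gene this came to 0.117 to 1.75 CPM after ligation. None of these genes passed the filter. In the fit without a filter 4 of 990 were higher, among 553 higher genes in that fit. In DESeq2 1 of 3 was higher, and with at least 5 CPM in 6 libraries 1 of 2. Over the ligated libraries a receptor gene had 1.64 counts on average, a 99th percentile of 9 and a maximum of 67. Of the 255 liver list genes below the filter, 196 had more than 9. Counts are not corrected for gene length, so the receptor genes do not set a background level for the liver genes. The part of such background in the other results was not tested.

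**Figure D2:**
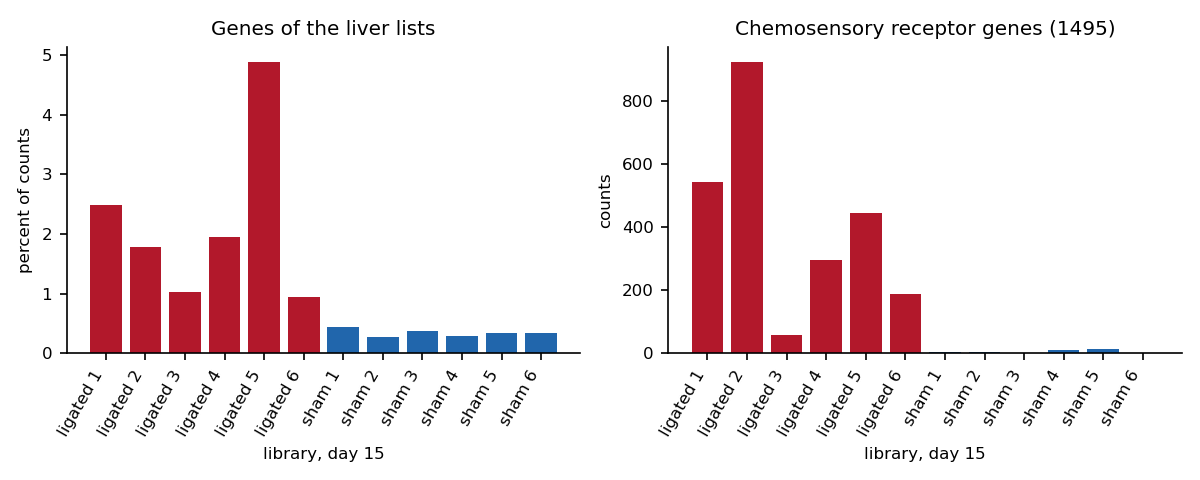
Percent of each day 15 library's counts in genes of the 12 liver lists (left) and counts of 1495 chemosensory receptor genes (right), ligated in red and sham in blue. Ligated 5 is highest on the left (4.90%) and ligated 2 on the right (926 counts), and sham libraries are below every ligated library in both.

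The 15 predicted genes among the higher ones followed the receptor genes rather than the liver genes in their highest animal: ligated 2 was highest for 11 of 15. Their log2 fold changes ran from 1.22 to 8.80. Of the 15, 10 did not overlap between groups, near the share over all higher genes (93 of 143). Over all genes tested, 2.38% had every ligated animal above every sham animal. The 11 with symbols of the Gm series summed to 69676, 120233, 1330, 20898, 24997 and 13172 CPM in ligated animals 1 to 6, and several are near-identical copies whose reads may be divided arbitrarily. Chd9, which encodes a chromatin remodeller, had the smallest p of all genes tested. It stood at 5948, 3813, 1952, 972, 2931 and 1172 normalised CPM after ligation and 64.4, 115, 67.9, 86.8, 42.4 and 85.5 after sham surgery, and it rose by 5.18 (SE 0.46, adjusted p = 3.01e-08). Ligated 1 and 2 were highest, as for the receptor and predicted genes, and ligated 4 was lowest.

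Of 5 tested bile duct genes 2 rose, Krt8 and Krt18, keratins of simple epithelia that hepatocytes also make. Krt18 stood at 145, 100, 72.2, 58.0, 218 and 34.9 normalised CPM after ligation and 0 to 8.54 after sham surgery and rose by 4.59 (SE 0.81, adjusted p = 0.000424). Krt19, a keratin of ducts and not of hepatocytes, stood at 34.4, 48.6, 43.3, 14.5, 20.8 and 53.9 against 0, 0, 12.4, 40.5, 30.8 and 25.6. Its groups overlapped, and the log2 difference was 0.86 (SE 0.68, adjusted p = 0.564). Krt7, another duct keratin, had 20 counts against 4. The 5 duct markers summed to 26.5 to 98.6 CPM after ligation and 0 to 51.3 after sham surgery. Intestinal epithelial genes were all below the filter, but their sum was 63.4 to 150 CPM after ligation and 3.85 to 19.1 after sham surgery. Of the intestine markers, Fabp2, the intestinal fatty acid-binding protein, had 36 counts against 0. Vil1 had 12 against 4, Sis 7 against 0 and Lct 3 against 0. For the receptor genes above, the 99th percentile after ligation was 9 counts. Counts are not corrected for gene length, so this sets no background level for the intestine markers either.

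**Figure D3:**
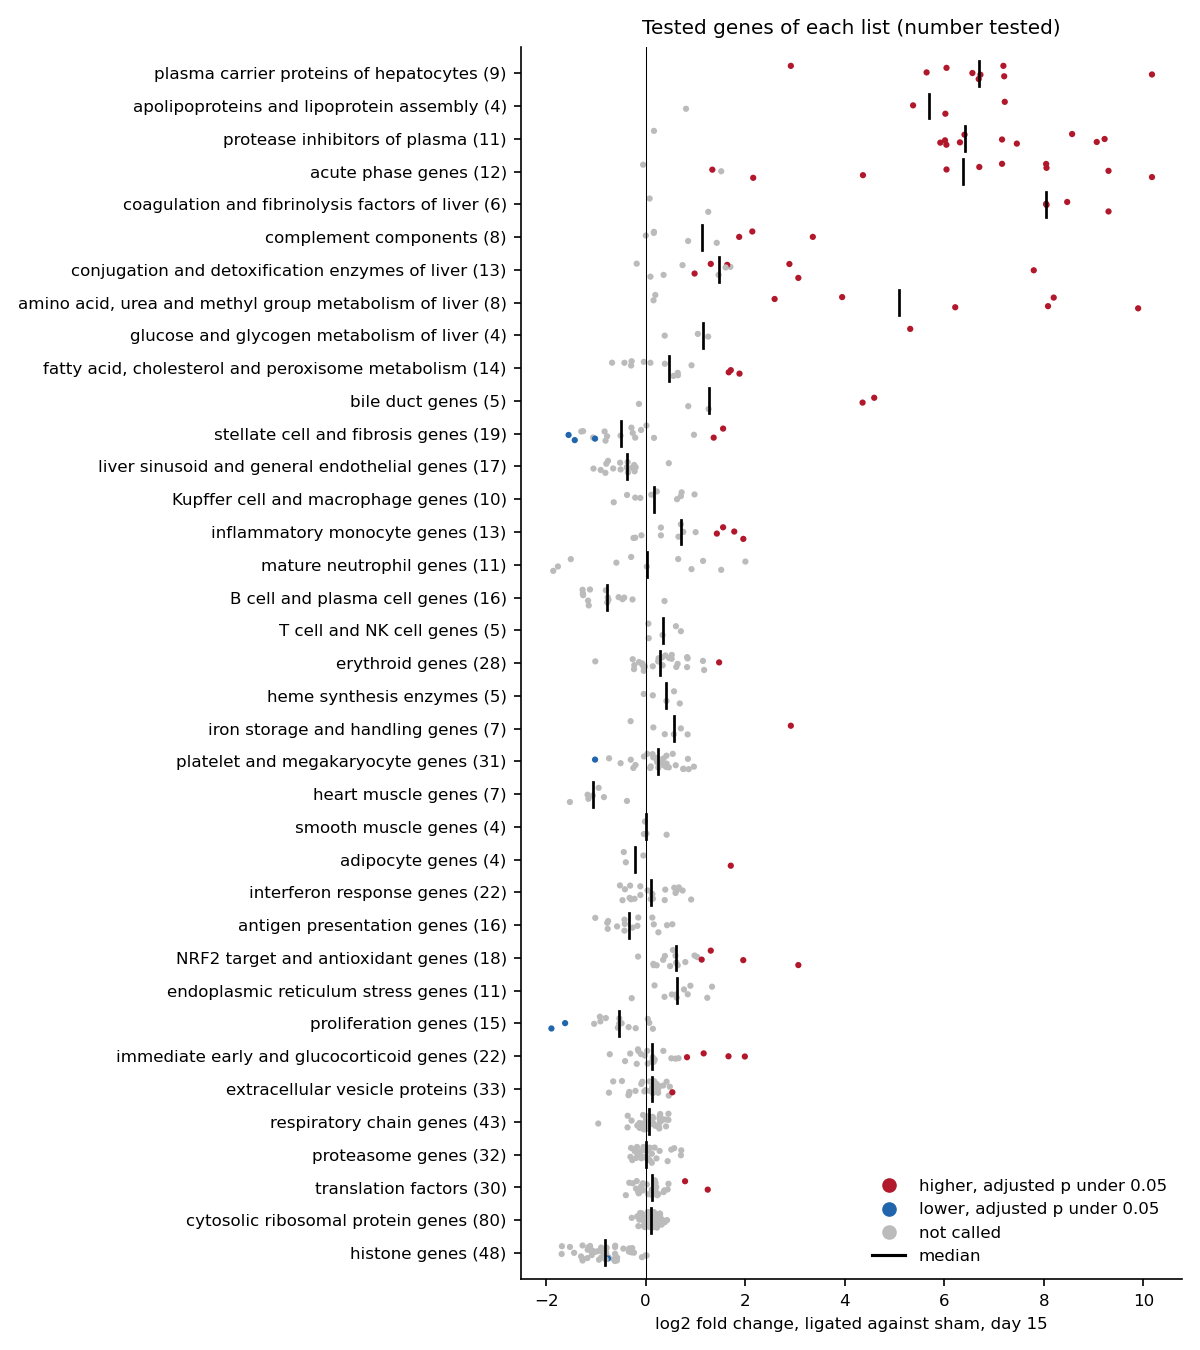
Log2 fold change at day 15 of each tested gene in the gene lists with at least 4 tested members; dots are genes, coloured by call, and the black line is the list median. The lists of plasma proteins and of amino acid metabolism lie far to the right, while the lists of platelets, ribosomes, proteasome and respiratory chain centre near 0.

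Several transcripts of connective tissue fell. Col15a1, a collagen of vessel and muscle basement membranes, stood at 0, 6.48, 3.61, 0, 7.78 and 12.7 normalised CPM in ligated animals 1 to 6 and at 113, 66.4, 30.9, 31.8, 34.7 and 34.2 in sham animals. It fell by 3.22 on the log2 scale (SE 0.53, adjusted p = 0.000159), the largest fall of the 44. Col1a1, which encodes the alpha-1 chain of fibrillar collagen I, stood at 68.8, 19.4, 57.7, 55.1, 33.7 and 105 after ligation and 137, 208, 185, 177, 169 and 115 after sham surgery. Its groups did not overlap, and it fell by 1.55 (SE 0.37, adjusted p = 0.00992). Its partner chain Col1a2 fell by 1.43 (SE 0.34, adjusted p = 0.0114). Col3a1, of reticular fibres, was lower on average (88.3 ± 33.6 against 214 ± 117 normalised CPM, SD, n = 6 each) without passing the test (adjusted p = 0.129). It was called in the fit without a filter, in the 12 libraries of day 15 alone (adjusted p = 0.0407) and with the replicate number as a block (adjusted p = 0.0405). Col6a2, a chain of the pericellular collagen VI, fell by 2.11 (SE 0.48, adjusted p = 0.00712; 0.0527 without ligated 5 and sham 1).

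Sham animal 1 was high for some of the other matrix genes. Dpt, which encodes the dermal matrix protein dermatopontin, stood at 7.78 to 34.4 normalised CPM after ligation and at 286, 62.0, 24.7, 69.5, 92.4 and 98.3 in sham animals. It fell by 2.45 (SE 0.50, adjusted p = 0.00243) and fell by 1.86 without sham 1, and its adjusted p was 0.0525 without sham 1 and ligated 5. Gsn, the actin-severing protein gelsolin, stood at 114 to 271 after ligation and at 1315, 358, 259, 289, 304 and 543 after sham surgery. It fell by 1.46 (SE 0.33, adjusted p = 0.00577) and fell by 0.92 without sham 1 (adjusted p = 0.0282), and its adjusted p was 0.0889 without both. Crispld2, a secreted matrix protein, fell by 2.38 (SE 0.56, adjusted p = 0.00994; 0.0948 without both). The receptor tyrosine kinase gene Axl fell by 1.46 (SE 0.36, adjusted p = 0.016), and its adjusted p was 0.0578 without sham 1. Ehd2, a membrane protein of caveolae that was picked after its values were seen, stood at 31.9 to 85.6 against 94.0 to 221 and fell by 1.35 (SE 0.26, adjusted p = 0.00115).

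Not all matrix genes went down. In the list of stellate cell and fibrosis genes 19 of 39 were tested, 3 fell (Col1a1, Col1a2 and Sparc), 2 rose and the median was -0.50. The call of Sparc was lost without any 1 of 4 libraries (ligated 4 or 5, or sham 4 or 5), with adjusted p values up to 0.0898. The genes that rose were Fn1, fibronectin, which hepatocytes and macrophages make, and Tgfbi, a matrix protein induced by TGF-beta that monocytes also express. Fn1 stood at 428, 269, 209, 290, 475 and 209 normalised CPM after ligation and 189, 48.7, 80.3, 92.6, 38.5 and 188 after sham surgery, and rose by 1.56 (SE 0.36, adjusted p = 0.00842). Tgfbi stood at 237, 162, 180, 168, 130 and 130 against 48.3, 106, 43.2, 34.7, 92.4 and 64.1, and rose by 1.37 (SE 0.24, adjusted p = 0.000378). Neither gene overlapped between the groups. The 5 stellate cell markers summed to 73.4 to 178 CPM after ligation and 145 to 220 after sham surgery, and they did not move alike. Col1a1 had 105 counts against 243, Pdgfrb 17 against 25, Acta2 17 against 12, Lrat 17 against 2 and Reln 94 against 5. These counts are not scaled for the larger totals of the ligated libraries, so those of Acta2 give no direction. Of 17 tested endothelial genes 0 passed the test, with a median of -0.38, and sham 1 held 4331 CPM of them against 1298 to 1760 in the other sham animals.

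**Figure D4:**
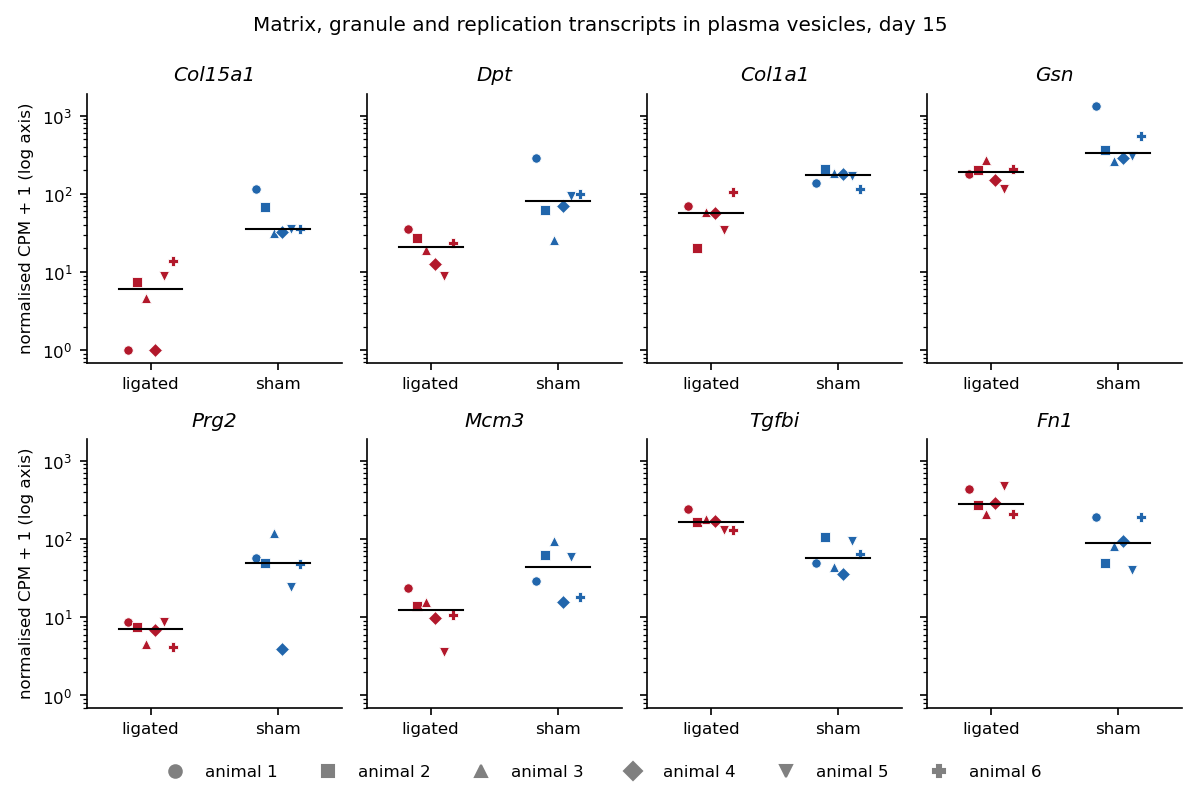
Normalised CPM plus 1 on a log axis for 8 genes in the 6 ligated (red) and 6 sham (blue) libraries of day 15; each symbol is 1 animal and the line is the group median. Col15a1 and Col1a1 are lower in every ligated animal, Dpt, Gsn, Prg2 and Mcm3 overlap between groups, and Tgfbi and Fn1 are higher in every ligated animal.

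Inflammatory monocyte genes rose in 4 of 13 tested members, with a median of 0.71. Ccr2, the receptor that calls monocytes out of the marrow, stood at 68.8, 48.6, 43.3, 46.4, 46.7 and 25.4 normalised CPM after ligation and 16.1, 22.1, 6.18, 5.79, 7.70 and 12.8 after sham surgery. No sham animal reached the lowest ligated animal, and the log2 fold change was 1.96 (SE 0.44, adjusted p = 0.00686). Lgals3, the macrophage lectin galectin 3, rose by 1.78 (SE 0.31, adjusted p = 0.000332) and S100a4 by 1.43 (SE 0.31, adjusted p = 0.00493); the fourth is Fn1. Of 10 tested Kupffer cell and macrophage genes 0 passed the test (median 0.17), and the markers of resident Kupffer cells had few counts: Clec4f 6 against 7, Timd4 1 against 2, Vsig4 8 against 0 and Cd5l 22 against 5.

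Granulocyte genes varied widely among the sham animals, where the neutrophil list summed to 222 to 4480 CPM. Of 11 tested neutrophil genes 0 passed the test, with a median of 0.02. S100a8, a calcium-binding protein of neutrophils, stood at 149 to 642 normalised CPM after ligation and at 169, 1177, 809, 17.4, 262 and 120 in sham animals, so that sham 2 and 3 were above every ligated animal. Prg2, the major basic protein of eosinophil granules, was lower, at 3.17 to 7.78 after ligation and at 56.3, 48.7, 117, 2.89, 23.1 and 47.0 in sham animals, where number 4 was below every ligated animal. It fell by 2.92 (SE 0.73, adjusted p = 0.0166), and its adjusted p was 0.0516 without sham 3. B cell genes had a median of -0.77 over 16 tested members with 0 calls, and Cd79a, of the B cell receptor, stood at -1.12 on the log2 scale (SE 0.47, adjusted p = 0.185), but was called without sham 1 (adjusted p = 0.0365).

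A few genes of DNA replication fell. Mcm3 and Mcm7, subunits of the replicative helicase, were the 2 calls among 15 tested proliferation genes (median -0.53). The proliferation genes summed to 460 to 802 CPM after ligation and to 753, 1503, 2380, 401, 909 and 847 in sham animals 1 to 6. Sham 2 and 3 were highest, and sham 4 was below every ligated animal. Mcm7 stood at 6.48 to 39.7 normalised CPM after ligation and 20.1 to 89.7 after sham surgery and fell by 1.62 (SE 0.39, adjusted p = 0.0118). Mcm3 fell by 1.89 (SE 0.48, adjusted p = 0.0166), with an adjusted p up to 0.0563 without ligated 5 or sham 3. Of the histone genes 47 of 48 tested members had a negative log2 fold change, with a median of -0.82. Only Hist1h4c among them passed the test, falling by 0.76 (SE 0.20, adjusted p = 0.024), and its call was lost without any 1 of ligated 1, 2, 5 or 6 or sham 3, with adjusted p values up to 0.0887. The histone genes summed to 1850 to 4478 CPM after ligation and 2284 to 10113 after sham surgery, with the highest values in sham 3 and sham 2 (8548).

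Stress-responsive genes rose in small numbers. Of 22 tested immediate early and glucocorticoid genes 4 rose, with a median of 0.13. Tsc22d3, the glucocorticoid-induced leucine zipper gene, stood at 244, 194, 202, 177, 210 and 241 normalised CPM after ligation and 72.4, 57.5, 43.2, 174, 123 and 76.9 after sham surgery. It rose by 1.17 (SE 0.24, adjusted p = 0.00225), with sham 4 just below the lowest ligated animal. Ddit4, an inhibitor of mTOR signalling induced by stress and glucocorticoids, rose by 1.99 (SE 0.43, adjusted p = 0.00458). Fkbp5, a co-chaperone of the glucocorticoid receptor, rose by 1.66 (SE 0.47, adjusted p = 0.0368), and Klf6, an early response factor, by 0.83 (SE 0.22, adjusted p = 0.0225). The calls of Fkbp5 and Klf6 were lost in 8 and 5 of the 12 fits that left out 1 library. Of 18 tested NRF2 target and antioxidant genes 4 rose, with a median of 0.61. Srxn1, which repairs peroxiredoxins, rose by 1.96 (SE 0.43, adjusted p = 0.00493), and Gsr, glutathione reductase, by 1.13 (SE 0.26, adjusted p = 0.00975). Mgst1 and Gstm1, glutathione-dependent enzymes that also count among the liver genes above, are the other calls, and Gstm1 had an adjusted p of 0.124 without ligated 5. Of 11 tested endoplasmic reticulum stress genes 0 passed the test, with a median of 0.62. P4hb, a protein disulfide isomerase of the endoplasmic reticulum that was picked after its values were seen, stood at 203 to 363 against 65.5 to 92.5 and rose by 1.74 (SE 0.25, adjusted p = 3.51e-05).

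Gene groups of the blood and of basic cell functions moved little. Of 28 tested erythroid genes 1 passed the test, Xpo7, which rose by 1.48 (SE 0.41, adjusted p = 0.0298) and lost its call in 7 of the 12 fits that left out 1 library. Hbb-bs, an adult beta-globin, stood at 19180 to 44231 against 18927 to 52866 normalised CPM, a log2 difference of -0.03 (SE 0.24, adjusted p = 0.965). Of 31 tested platelet genes 0 rose and 1, Sparc, fell, and Pf4, the platelet chemokine, differed by 0.36 on the log2 scale (SE 0.32, adjusted p = 0.605). Of the 80 ribosomal protein, 43 respiratory chain and 32 proteasome genes tested, 0 passed, with medians of 0.11, 0.06 and 0.01. Of 33 tested genes for proteins carried by vesicles 1 rose, the chaperone gene Hspa8, by 0.54 (SE 0.14, adjusted p = 0.0226), and it lost its call in 4 of those 12 fits. Heart muscle genes had a median of -1.06 over 7 tested members with 0 calls.

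At day 8, in other animals, 114 genes were higher (2.77%) and 15 lower (0.365%) after ligation. Library totals of day 8 ran more widely, from 101733 to 937963 counts. Ligated 3 of day 8 held 308381 CPM in the Gm series genes called higher at day 15. How far this shaped the number of calls on each day was not tested. Both days shared 52 higher genes, 36.4% of those of day 15 and 45.6% of those of day 8, and 1 lower gene, Pik3c2b. Of the genes called higher at day 8, 108 of 114 were also positive at day 15, and 37 had the larger value at day 15. They were chosen by their day 8 values, and the median over all genes tested was -0.02 at day 15. The 49 liver list genes that rose at day 15 had a median of 6.22 at day 15 and 3.77 at day 8, where 24 were called, but they were chosen by their day 15 values. The difference between the days was tested for each gene, and 0 of 4112 passed in edgeR, with 234 at an unadjusted p under 0.05, and 0 in DESeq2. The smallest p belonged to Chd9, whose log2 fold change was larger at day 15 by 2.80 (SE 0.58, adjusted p = 0.177), followed by Tsc22d3 by 1.26 (SE 0.33), Pacs2 by -1.30 (SE 0.34), Ass1 by 3.15 (SE 0.84) and Cps1 by 6.02 (SE 1.61), each with an adjusted p of 0.583.

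Some gene groups called at day 8 had few calls at day 15. Erythroid genes had 15 of 28 members higher at day 8 (median 1.12) and 1 at day 15 (median 0.30). Neutrophil genes had 3 of 11 higher at day 8 (median 1.54) and 0 at day 15 (median 0.02). Hbb-bs had a log2 fold change of 1.08 at day 8, and the change from day 8 to day 15 was -1.11 (SE 0.34, adjusted p = 0.673). Ccr2, Tgfbi and Lgals3 had log2 fold changes of 1.94, 1.63 and 1.42 at day 8 and 1.96, 1.37 and 1.78 at day 15, and were called on both days. The collagen gene Col15a1 had -0.62 at day 8 (adjusted p = 0.541) and -3.22 at day 15, a difference of -2.60 (SE 0.70, adjusted p = 0.583).

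**Figure D5:**
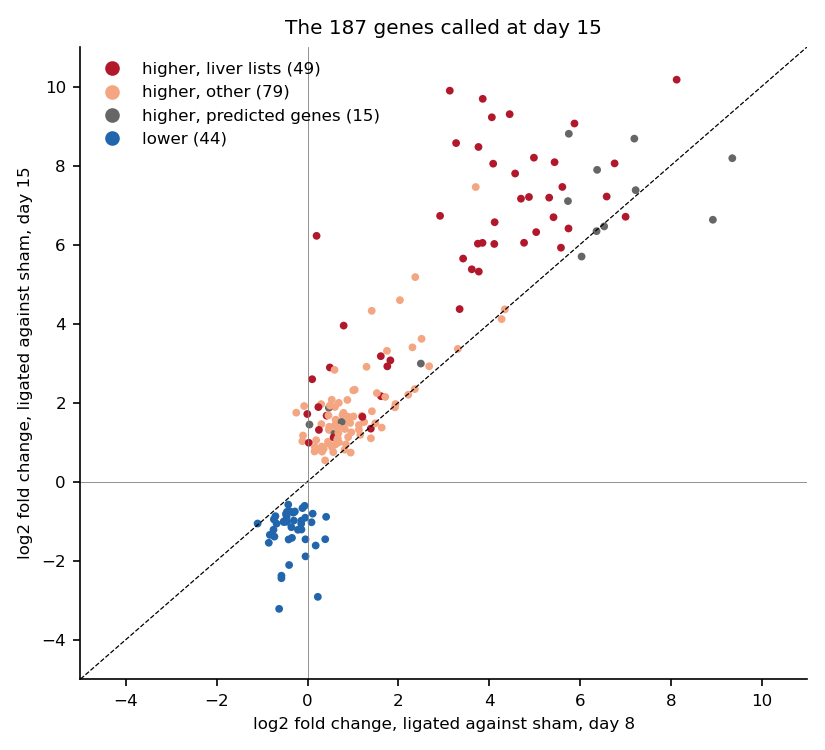
Log2 fold change of ligated against sham at day 8 (horizontal) and at day 15 (vertical) for the 187 genes called at day 15; the dashed line marks equal values. Most liver list genes (red) lie above the line. Of the 44 lower genes (blue), 38 are negative at day 8, with a median of -0.40 there and -1.03 at day 15, the day they were chosen by.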

How the data were processed

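RNA of vesicles precipitated from plasma was sequenced in 24 libraries, of which the 12 of day 15 are compared here. The deposited table gives expected counts per gene for 21960 genes as whole numbers. The authors used STAR and RSEM, per the submitters' processing notes. Neither the versions nor who rounded the estimates is stated there. These notes also name hg38, while the identifiers are mouse Ensembl genes, 21860 of which were found in GENCODE M21, the source of the coordinates. Coordinates of promoters are those of RefSeq on GRCm38.p6. Groups were taken from the sample titles.

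The deposited counts were filtered with filterByExpr (minimum count 10, minimum total 15, 4112 genes kept), scaled by TMM and fitted in edgeR 4.0.16 (quasi-likelihood F-test, 4 group means over 24 libraries, Benjamini-Hochberg threshold 0.05). A gene could pass the filter through 1 group alone, so counts of list members are over those tested. The standard error is the log2 fold change divided by the root of F. Normalised CPM uses the TMM library sizes, and sums over lists use CPM of the library total. Genes with 0 sham counts are given as bounds against 3 counts over the group, and those with 1 to 3 as ratios with 95% exact intervals, which cover counting error only, since reads carry no molecular identifiers. The tested genes held 90.0 to 93.3% of the counts of a library. Pairs of libraries of 1 group differed beyond sampling noise (chi-square per degree of freedom at least 1.66).

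The members and the 50 gene lists were chosen with earlier results of these data known. Of the called genes, those averaging 5 CPM or more were ranked by change, and the 12 at each end were named, besides up to 4 called members per list, a set of preset genes and the 5 smallest p of the difference between days. Predicted genes were counted and not named. A few genes chosen this way are not reported here. Alternatives were DESeq2 1.42.0 (Wald test), its size factors in edgeR, other filters, removal of Lars2 and hemoglobin genes, day 15 libraries alone, the replicate number as a block and each library left out. Same-numbered ligated and sham animals of day 15 correlated in their deviations by -0.031 to 0.113, with 1 of 6 pairs over 0.1, so the numbers were not taken to pair the animals. Figures were drawn with matplotlib 3.10.9.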

Additional observations from a re-analysis of the deposited data

Results flagged for a closer look

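Single libraries lay far from the other 5 of their group for 22 of 266 groups of values checked. The measure was the gap to the nearest library over the range of the group on log2 CPM. Chance alone marks about 1 in 20 where values are normally distributed. A group with counts in a single library is always marked, so the 22 cannot be set against that rate. Ligated 5 was high for bile acid and bile lipid transporters (623 CPM summed, others 154 to 246), for NRF2 target and antioxidant genes (3360, others 2180 to 2520) and for Gstm3 (187 normalised CPM, others 38.0 to 64.9). Ligated 4 was high for translation factors (20600, others 18000 to 18700). Ligated 3 was at 0 for Col6a2 (others 6.48 to 13), and ligated 1 was low for Xpo7 (76.4, others 229 to 433).

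Sham 1 was high for endothelial genes (4330, others 1300 to 1760) and at 0 for lung epithelial genes (others 11.7 to 27.0) and for Cd79a (others 17.7 to 66.6). Sham 3 was low for skeletal muscle genes (57.3, others 238 to 537) and for Actc1, the cardiac actin gene (6.18, others 28.2 to 59.8). Sham 4 was low for glucose and glycogen genes (108, others 140 to 158) and at 0 for Ass1 (others 8.54 to 27.0). Sham 6 was high for C4b (64.1, others 18.5 to 29.0). For genes with counts in a single sham library the marked value is that library: sham 3 for Bhmt (6.18), sham 4 for Cps1 (8.68), sham 5 for Fga, Fgb and Hpx (3.85 each), for Serpina1c (15.4) and for the preset chemosensory genes (3.9), and sham 6 for Itih4 (4.27).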

How the results depend on the processing

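The depth of 157133 to 465744 counts leaves most liver genes below the filter. The count of higher genes moved from 143 to 377 in DESeq2, 553 without a filter and 366 with at least 5 CPM in 6 libraries, a filter meant to be stricter that kept more genes. A pair of alternatives was chosen after seeing the data: a minimum count of 30 gave 56 higher and 45 lower genes, and leaving out ligated 5 and sham 1 gave 93 higher and 19 lower. The lower genes moved from 44 to 81 in DESeq2 and 135 without a filter. Of the genes called, 138 higher and 41 lower were shared with DESeq2. The difference between days had 51 genes without a filter and 1 with 5 CPM in 6 libraries, against 0. With the replicate block, which rests on numbers that are not stated to pair the animals, 173 genes were higher, 71 were lower and 1 differed between days. Of the libraries of day 15, 1 ligated and 1 sham library correlated best with its own number. Leaving out 1 library gave 98 to 197 higher genes, 19 to 63 lower genes and 0 to 1 that differed between days, the 1 without ligated 4. In all 12 such fits 90 of the 143 higher and 12 of the 44 lower genes were called, as were 55 of the 72 called genes among those named. DESeq2 did not call Cyp2e1 or Scd1, and the fit without a filter did not call Eif3e, Hist1h4c, Hspa8, Klf6 or Pacs2. Among genes not called, Lcn2, Col3a1, Cd79a, Actc1 and Col2a1 were called under 1 or more alternatives. No named gene changed sign with a call. DESeq2's size factors, removal of Lars2 and hemoglobin genes and the 12 libraries of day 15 alone kept both counts within 1.5 times.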
